A study of Caenorhabditis elegans with 2 samples.

Results

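Genes of the dystrophin complex of Caenorhabditis elegans were examined for peaks of chromatin immunoprecipitation and sequencing of an eGFP-tagged CEH-28 protein. The 7 genes, of 19973 protein-coding genes in the annotation, are dys-1, dyb-1, stn-1, stn-2, sgca-1, dyc-1 and snf-6. They were chosen by name, with the peaks at some of them already known, so the levels given here are descriptions and carry no test. A peak was assigned to a gene where its summit lay in the gene body or within 2000 bp either side, and a summit outside the gene can then also belong to a neighbour. Whole L3 larvae of mixed sex of the strain OP241 were used, in 1 group of 2 biological replicates. Both replicates carried the unc-119(ed3) mutation on chromosome III and the integrated transgene wgIs241 with tagged ceh-28, their age is given as unknown, and the antibody field of the labels names ceh-28. There was no comparison group. CEH-28 belongs to the NK-2 class of homeodomain proteins and is best known for its role in M4, a motor neuron of the pharynx. In whole larvae, strong binding in a few cells and weak binding in many cannot be told apart.

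Dystrophin is a long cytoplasmic protein that links the actin cytoskeleton to a complex at the cell membrane, and its loss in humans causes Duchenne muscular dystrophy. Worms without dys-1, the dystrophin gene, bend the head too far and move too actively, and their body wall muscle degenerates in a sensitized background. DYB-1 is dystrobrevin, a smaller relative of dystrophin, STN-1 and STN-2 are syntrophins, which are adaptor proteins, and SGCA-1 is an alpha-sarcoglycan. DYC-1 resembles the mammalian adaptor CAPON of neuronal nitric oxide synthase, and SNF-6 is an acetylcholine and choline transporter of the neuromuscular junction that binds syntrophin.

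Thresholded peaks lay at 6 of the 7 genes, and 12 of the 16 peaks lay at dys-1 and dyb-1. The thresholded list is the set of 3531 peaks that the authors derived from both replicates and their pool, and its signal, the authors' own value per peak, ran from 65.9 to 5643 with a median of 109.5. Over all protein-coding genes, 21.8% had such a summit in the same region. Long genes had one more often, at 23.3% of genes of 2000 to under 5000 bp, 33.9% of genes of 5000 to under 15000 bp and 44.6% of genes of at least 15000 bp. Because the genes were selected on these peaks, the 6 of 7 is not read against these shares. The dys-1 gene held 7 summits, and 8 genes of all protein-coding genes had more. The dyb-1 gene held 5, and 28 genes had more. In their length classes, 1.49% of genes of at least 15000 bp had 7 or more summits, and 1.03% of genes of 5000 to under 15000 bp had 5 or more. The other 4 genes with a peak had 1 summit each, and snf-6 had none.

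**Figure D1:**
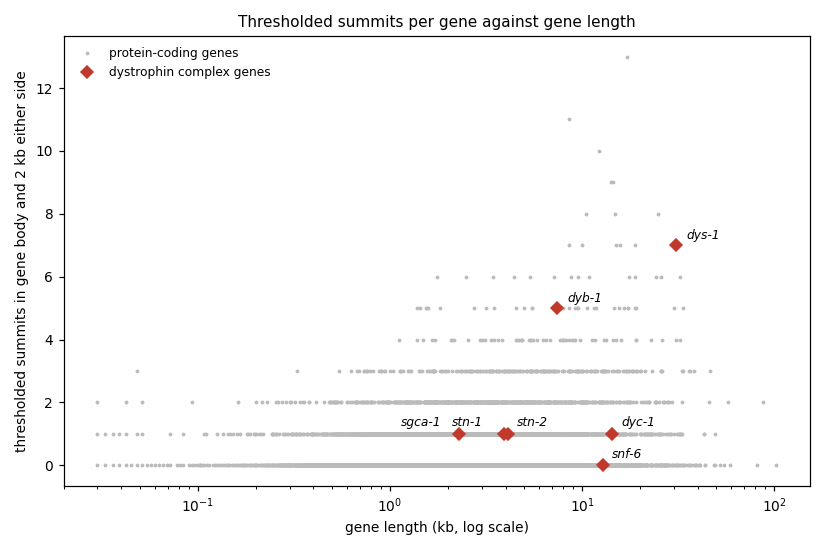
Number of thresholded summits in the gene body and 2 kb either side, on the vertical axis, against gene length in kb on a log axis, with 1 point per protein-coding gene and the 7 dystrophin complex genes as diamonds. The dys-1 diamond sits at 7 summits and the dyb-1 diamond at 5, while stn-1, stn-2, sgca-1 and dyc-1 sit at 1 and snf-6 at 0.

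The dys-1 gene carried the highest signals of the 7 genes, and they lay toward its 3' end. It runs on the reverse strand of chromosome I from 11526918 to 11557851 on ce11, over 30.9 kb, with 47 exons in its longest transcript and 9 annotated 5' ends. The strongest of its peaks, from 11533388 to 11534333, had a pooled signal of 1699 and rank 17 in the list, with a signal of 1072 and rank 15 in replicate 1 and 632 and rank 19 in replicate 2. Its summit lay in intron 36, which is 523 bp long, 23919 bp from the outermost 5' end. The next intron, 37, held 2 summits 221 bp apart within a single interval from 11532117 to 11533477. The stronger of them had a pooled signal of 1117 at rank 37, and ranked 28 in replicate 1 and 90 in replicate 2. The weaker had a pooled signal of 478 at rank 198, and ranked 143 in replicate 1 and 469 in replicate 2. Both intron 37 summits thus stood further down the list of replicate 2 than that of replicate 1, whereas the intron 36 summit stood near the top of both. The annotated 5' end nearest to these summits is an inner one. The intron 36 summit stood 4108 bp upstream of it, and the stronger and weaker intron 37 summits 3074 and 3295 bp upstream. A pooled peak 59 bp upstream of that inner end had a signal of 44.7 at rank 6106, below the threshold.

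A further 3 summits lay around the 3' end of dys-1, spread over 1641 bp, and in each of these the ranks of the replicates were close. The strongest, with a pooled signal of 548 at rank 156, ranked 160 in replicate 1 and 164 in replicate 2. It lay 773 bp past the annotated end of dys-1, inside an intron of the neighbouring gene phm-2, so it cannot be given to dys-1 alone. The second, in the last intron, had a pooled signal of 311 at rank 408 and lay 493 bp downstream of the innermost 5' end of the gene, with ranks of 408 and 423 in the replicates. The third lay in the 3' untranslated region, with a pooled signal of 288 at rank 455 and ranks of 456 and 489. None of these 3 summits lay in a promoter window of dys-1, taken as 1000 bp upstream to 200 bp downstream of an annotated 5' end.

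The start of dys-1 was nearly empty. The only thresholded summit in the upstream part of the gene lay in intron 4, which is 3333 bp long, 3211 bp from the outermost 5' end, with a pooled signal of 85.0 at rank 2469. Its partner ranked 3078 in replicate 1, with a summit 97 bp away, and 2275 in replicate 2, with a summit 6 bp away. Between this summit and intron 36 no thresholded summit lay over 20708 bp, and the pooled list of 30000 peaks had 3 summits there, the highest with a signal of 34.7 at rank 8825. At the outermost 5' end itself the nearest replicate peaks lay 844 bp and 840 bp upstream, at ranks of 8401 in replicate 1 and 25060 in replicate 2, and the pooled list had none there. Introns make up 63.7% of the span of the longest dys-1 transcript, and 5 of the 7 thresholded summits lay in them.

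**Figure D2:**
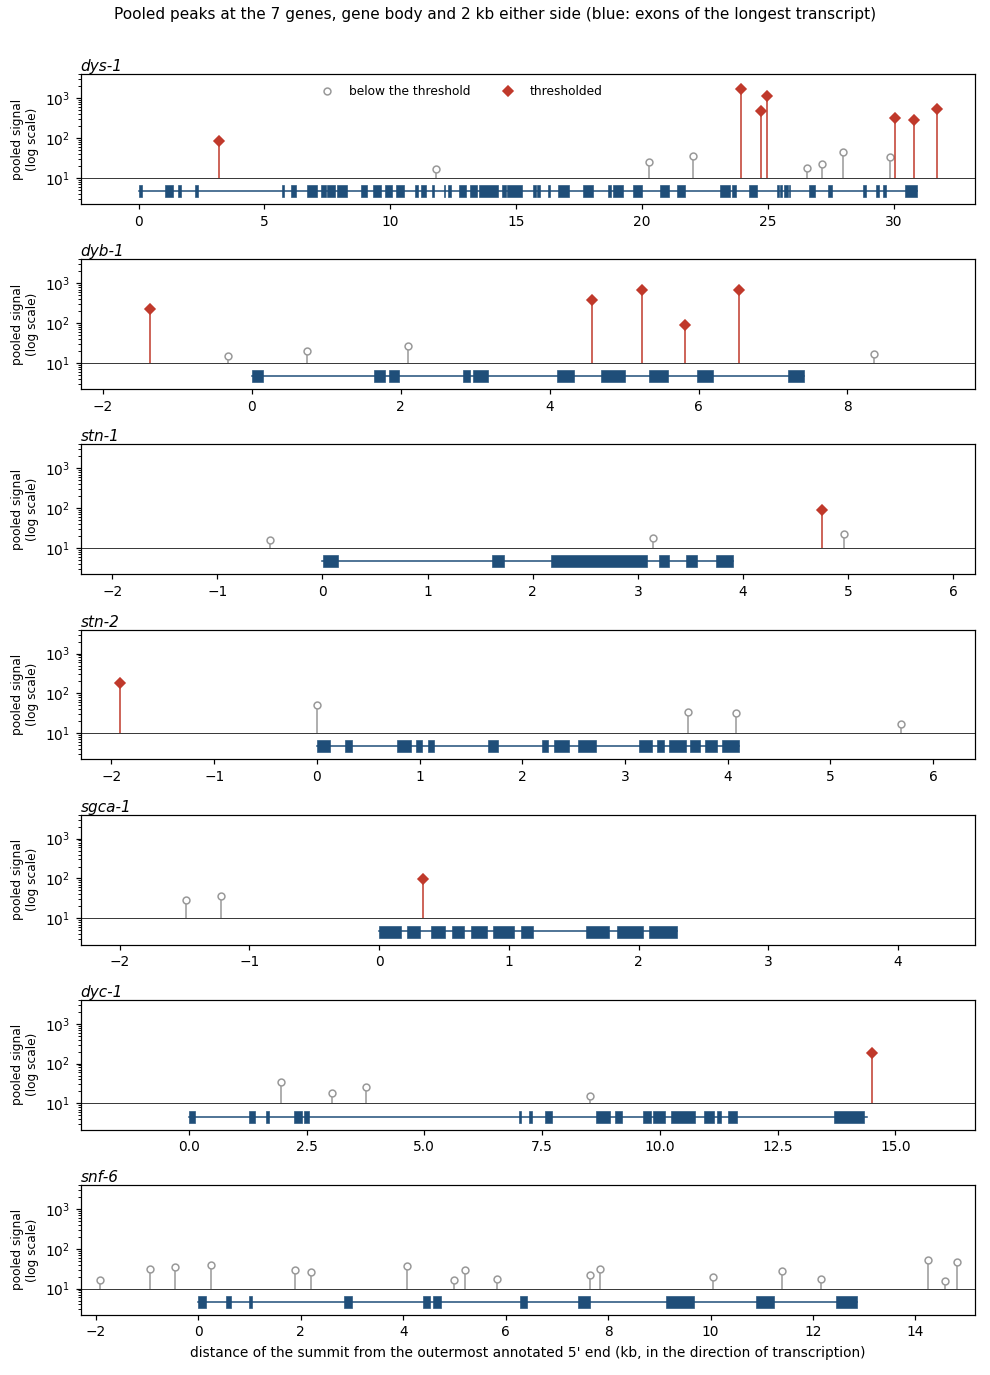
Pooled peaks at the 7 genes, with the summit's distance from the outermost annotated 5' end in kb on the horizontal axis, in the direction of transcription, and pooled signal on a log axis; filled diamonds are thresholded, open circles are below the threshold and blue blocks are exons of the longest transcript. At dys-1 and dyb-1 the tall stems stand in the 3' part of the gene, and at snf-6 the 18 stems stay at or below 50.8.

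The dystrobrevin gene dyb-1 also had its strongest peaks in introns of its 3' part. It runs on the forward strand of chromosome I from 1483083 to 1490498, over 7416 bp, with 10 exons and 4 annotated 5' ends, the innermost of them 5983 bp from the outermost. A run of 4 summits covered 1974 bp around that innermost 5' end, in introns 6, 7, 8 and 9. In intron 9 the pooled signal was 687 at rank 97, with ranks of 87 in replicate 1 and 145 in replicate 2, and the summit lay 560 bp downstream of the innermost 5' end. In intron 7 it was 668 at rank 106, with ranks of 106 and 116, and the summit lay 748 bp upstream of that end, in its promoter window. In intron 6 it was 387 at rank 285, with ranks of 239 and 390, 1414 bp upstream. All 3 stood among the 500 strongest peaks of both replicates.

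The remaining dyb-1 summits were weaker, and the replicates differed at 1 of them. The intron 8 summit lay 166 bp upstream of the innermost 5' end, in its promoter window, with a pooled signal of 89.6 at rank 2294. In replicate 1 it had a signal of 73.6 and ranked 1366, and in replicate 2 it had a signal of 16.8 and ranked 10823. It was the only peak of the 16 that was not among the 3531 strongest of replicate 2, and all 16 were among the 3531 strongest of replicate 1. The last dyb-1 summit lay 1362 bp upstream of the outermost 5' end, outside the promoter window, with a pooled signal of 225 at rank 652 and ranks of 707 and 624. Between it and intron 6 no thresholded summit lay over 5931 bp, and the highest of 3 pooled peaks there had a signal of 26.6 at rank 13151.

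**Figure D3:**
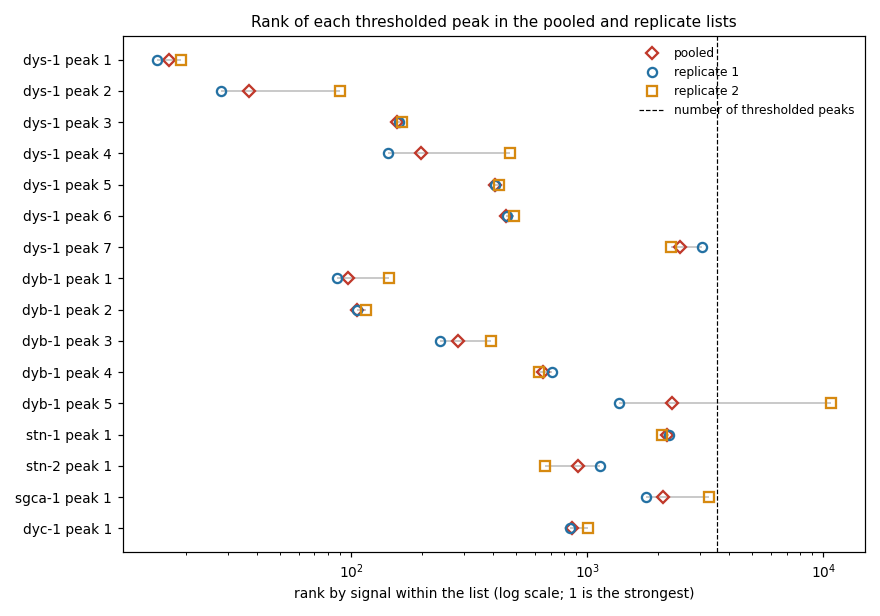
Rank of each of the 16 thresholded peaks by signal in the pooled list (diamonds), replicate 1 (circles) and replicate 2 (squares), on a log axis where 1 is the strongest; the dashed line marks rank 3531. The symbols of a peak lie close together at most peaks, and the dyb-1 peak 5 square stands apart at rank 10823.

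Most of the 16 thresholded summits had a partner close by in each replicate. In each replicate, the partner summit lay within 50 bp of the thresholded summit at 14 of the 16 peaks. The partner was the overlapping replicate peak with the nearest summit, a choice that favours short distances. The share over all thresholded summits is not given here, so nothing particular to these genes is read from this count. A gene was counted in both replicates where a peak among the 3531 strongest of replicate 1 overlapped one of replicate 2 by at least 1 bp in its region, which held for 6 of the 7 genes and for 16.6% of all protein-coding genes. Since the thresholded list was made from both replicates, this repetition is not independent of how the peaks were chosen. With the 1000 strongest peaks of each replicate the count was 2, dys-1 and dyb-1. The −log10 q-value was 3.78, the highest in the list, at each of the 16 peaks and at 84.8% of thresholded peaks, so it does not order them.

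The dys-1 and dyb-1 peaks lay in sequence rich in short AT-rich sites. The 7-base sequences AATCGAT and AATCAAT were searched on both strands, and overlapping matches were merged into 1 site. Either of them lay within 50 bp of 6 of the 7 dys-1 summits and 4 of the 5 dyb-1 summits. Over all thresholded summits the share was 47.4%, and over windows of the same length 500 bp to each side it was 12.2%. Single shares over all thresholded summits were 35.3% for AATCGAT and 24.9% for AATCAAT. Within 200 bp, 4 or more separate sites lay at 5 dys-1 and 4 dyb-1 summits, and at 16.7% of all thresholded summits. These motifs were picked in an earlier scan of the same 3531 summits, which include the 16, so the counts are descriptions.

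Copies in introns 36 and 37 of dys-1 were often spaced regularly. The intron 36 summit had 15 sites within 200 bp, all on the same strand, with a median spacing of 19 bp, and 11 of the 14 spacings were 18 to 20 bp. The stronger intron 37 summit also had 15 sites on the same strand, with 8 of 14 spacings in that range, and the weaker one had 4 of 9. Past the 3' end it was 3 of 6, in the last intron 0 of 5 and in the 3' untranslated region 0 of 2. AATCGAT predominated in intron 36 and AATCAAT in intron 37. Over the 7 dys-1 summits 26 of 50 spacings were 18 to 20 bp, where sites shared by the 2 neighbouring intron 37 windows count at both, and over the 5 dyb-1 summits it was 3 of 35. At least 3 such spacings were found at 4.59% of all thresholded summits. At dyb-1 the 3 strong summits had 10, 11 and 12 sites within 200 bp, on both strands. Whether reads from repeated copies could be placed uniquely was not tested.

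**Figure D4:**
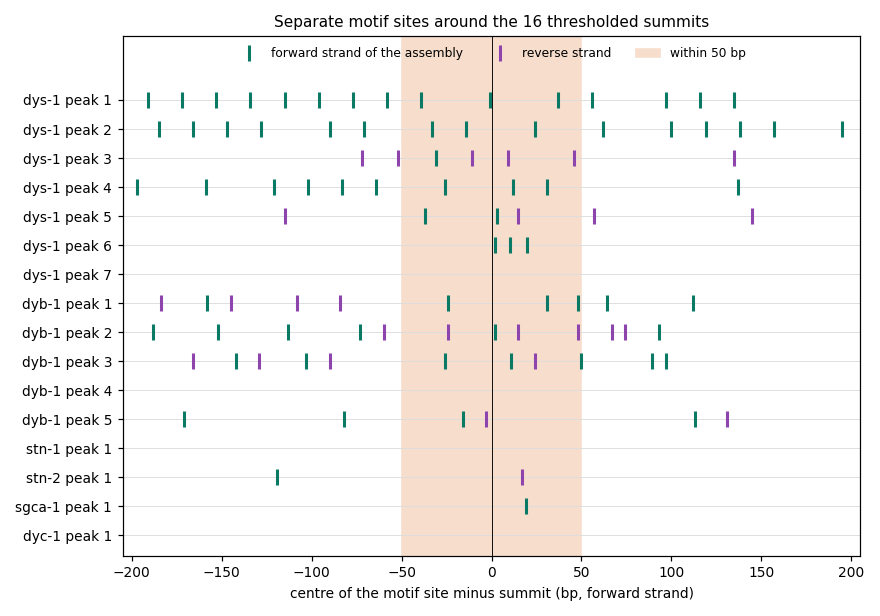
Positions of separate AATCGAT or AATCAAT sites around the 16 thresholded summits, as the centre of the site minus the summit in bp along the forward strand, with 1 row per peak; colour marks the strand and the shaded band the 50 bp to each side. The rows of dys-1 peaks 1, 2 and 4 show even steps on the forward strand, dyb-1 peaks mix strands, and the rows of dys-1 peak 7, dyb-1 peak 4, stn-1 and dyc-1 are empty.

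Base composition differed with the sites. The 12 summits with a site had 21.8% to 45.5% G and C within 50 bp, with a median of 28.7%, and the 4 without had 42.6% to 55.4%, with a median of 49.0%. The ranges overlap, and the median over all thresholded summits was 38.6%. The sites are AT-rich and lie inside the windows measured, so part of the difference follows from how the summits were divided. Summits without a site were the intron 4 summit of dys-1, the upstream summit of dyb-1 and the single summits of stn-1 and dyc-1. Their ranks ran from 652 to 2469, and those of the 12 with a site from 17 to 2294, so these ranges overlap. Averages over the whole gene regions include the summit windows. They were 2.55 sites per kb at dys-1 and 4.29 per kb at dyb-1, where chromosome I had 0.890 per kb. The dyb-1 region held 49 sites, with 10, 12, 11 and 6 of them within 200 bp of its intronic summits. The dys-1 region held 89, with 15, 15, 7, 10, 6 and 3 within 200 bp of its summits with a site. Sites shared by neighbouring windows count at each of these. The density outside the summit windows is not given here. The motifs known for NK-2 class proteins, TCAAGTG and TTAAGTG, lay within 50 bp of 0 of the 16 summits, and of 0.793% and 0.510% of all thresholded summits. CTGCGTC, found at 8.55% of all, also lay at 0 of the 16.

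The syntrophin gene stn-1 lies on the forward strand of chromosome I from 9501266 to 9505173, and its only thresholded summit lay outside it. The peak, from 9505820 to 9506219, had a pooled signal of 92.9 at rank 2184, with ranks of 2211 in replicate 1 and 2071 in replicate 2. Its summit stood 847 bp past the 3' end of stn-1, in the promoter windows of 2 other genes, 252 bp upstream of F30A10.9 and 527 bp upstream of usp-48, a ubiquitin-specific protease gene. The pooled peak nearest to the 5' end of stn-1 lay 501 bp upstream, with a signal of 15.6 at rank 27587. Thus the peak counted at stn-1 was at the start of its neighbours, and the start of stn-1 held only a peak near the bottom of the pooled list.

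The second syntrophin gene, stn-2, lies on the reverse strand of chromosome X from 7676511 to 7680619. Its thresholded peak, from 7682335 to 7682734, had a pooled signal of 181 at rank 917, with a signal of 84.5 and rank 1128 in replicate 1 and 103 and rank 663 in replicate 2. The summit stood 1916 bp upstream of stn-2 and 361 bp upstream of unc-18, which is transcribed away from it and encodes a protein of synaptic vesicle release. It lay in the promoter window of unc-18 and not in that of stn-2. A weaker peak sat on the start of stn-2 itself. In the pooled list its summit lay 6 bp downstream of the 5' end, with a signal of 50.9 at rank 5083, and it was the highest of the peaks just below the threshold at the 7 genes. In replicate 1 the summit lay 1 bp upstream, at rank 6178, and in replicate 2 it lay 13 bp downstream, at rank 6112.

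The alpha-sarcoglycan gene sgca-1 had a thresholded summit near an annotated start of its own. The gene lies on the reverse strand of chromosome X from 6787256 to 6789548, with 2 annotated 5' ends 480 bp apart. The peak, from 6789007 to 6789406, had a pooled signal of 95.6 at rank 2104, and its signal was 60.9 at rank 1768 in replicate 1 and 35.5 at rank 3266 in replicate 2. Its summit lay in intron 2, 341 bp downstream of the outermost 5' end and 139 bp upstream of the inner one. The summits of the pooled list and both replicates lay within 1 bp of each other. The 101 bp centred on the stn-2 and sgca-1 summits, from the WBcel235 (ce11) genome, forward strand, are shown because each holds a single site within 50 bp, in contrast to the arrays above. The capitals mark it, AATCAAT read on the reverse strand at stn-2 and AATCGAT at sgca-1.
stn-2 peak, chrX:7682485-7682585: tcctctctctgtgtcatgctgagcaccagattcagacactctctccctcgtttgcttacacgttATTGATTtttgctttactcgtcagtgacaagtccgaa
sgca-1 peak, chrX:6789157-6789257: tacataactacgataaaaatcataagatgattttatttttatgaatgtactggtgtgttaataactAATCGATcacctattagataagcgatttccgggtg

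The centre of the single site lay 17 bp from the summit at stn-2 and 19 bp from it at sgca-1. Over the whole gene regions there were 4 sites at stn-2, or 0.493 per kb, near the 0.537 per kb of chromosome X, and 1 site at sgca-1, or 0.159 per kb. The windows also differed in composition, with 45.5% G and C at stn-2 and 29.7% at sgca-1.

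The CAPON-like gene dyc-1 had its thresholded peak past its 3' end, beside a tRNA gene. It lies on the forward strand of chromosome X from 14049535 to 14063930, over 14396 bp. The peak, from 14063846 to 14064245, had a pooled signal of 187 at rank 866, with a signal of 106 and rank 846 in replicate 1 and 77.1 and rank 1009 in replicate 2. Its summit stood 116 bp past the end of dyc-1, 28 bp upstream of the tRNA gene on the reverse strand and 17 bp from the annotated start of the non-coding RNA gene C33G3.12 on the forward strand. Of all thresholded summits 1.33% lay within 100 bp of a tRNA gene. No AATCGAT or AATCAAT lay within 200 bp of the summit. The sequence from the start of the tRNA gene's interval across the summit is shown on the forward strand of WBcel235 (ce11) because the summit falls between these 2 non-coding genes, and the capitals mark the 73 bases of the tRNA gene.
dyc-1 peak, chrX:14063946-14064146: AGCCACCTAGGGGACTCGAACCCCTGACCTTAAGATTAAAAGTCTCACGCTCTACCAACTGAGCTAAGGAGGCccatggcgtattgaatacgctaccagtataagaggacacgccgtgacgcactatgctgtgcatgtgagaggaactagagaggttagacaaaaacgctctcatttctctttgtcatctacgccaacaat

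Within dyc-1 itself the pooled list had 4 weak summits. The highest lay 1954 bp downstream of the outermost 5' end with a signal of 34.5 at rank 8892, and replicate 1 had no partner for it. The peak past the 3' end was thus the only peak in the dyc-1 region among the strongest 3531 of either replicate.

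The transporter gene snf-6 was the only member without a thresholded peak, yet in the pooled list it had the most summits of the 7 genes. It lies on the reverse strand of chromosome III from 1519962 to 1532827, over 12866 bp. The pooled list had 18 summits in its region, or 1.07 per kb, where chromosome III had 0.385 per kb and the genome 0.299. Pooled densities of the other members ran from 0.272 per kb at dyc-1 to 0.788 at dyb-1. Each replicate list had 14 summits at snf-6, fewer than the 18 in replicate 1 and 15 in replicate 2 at dys-1. Per kb this was 0.830 in each replicate, below stn-2 at 0.863 in replicate 1 and 0.987 in replicate 2. In replicate 2 dyb-1 was also denser, at 0.876 per kb. The highest pooled signal was 50.8 at rank 5103, with ranks of 4692 in replicate 1 and 7236 in replicate 2, at a summit past the 3' end, 14249 bp from the 5' end. The peak nearest to the 5' end, 252 bp downstream in intron 1, had a signal of 40.1 at rank 7156, and ranked 5885 in replicate 1 and 12968 in replicate 2. The pooled snf-6 peaks were thus many and weak, and each stayed below the lowest thresholded signal of 65.9.

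Averaged over the snf-6 region, sites came to 2.31 per kb where chromosome III had 0.880 per kb. This is close to the average of the dys-1 region, which includes the arrays at its summits. Within 200 bp of the highest pooled summit 4 separate sites lay 52, 111 and 51 bp apart, with 1 of them within 50 bp of the summit. The window around this summit, on the forward strand of WBcel235 (ce11), is shown because it has several sites and a signal below the threshold, and the capitals mark its 3 sites.
snf-6 peak, chrIII:1518438-1518718: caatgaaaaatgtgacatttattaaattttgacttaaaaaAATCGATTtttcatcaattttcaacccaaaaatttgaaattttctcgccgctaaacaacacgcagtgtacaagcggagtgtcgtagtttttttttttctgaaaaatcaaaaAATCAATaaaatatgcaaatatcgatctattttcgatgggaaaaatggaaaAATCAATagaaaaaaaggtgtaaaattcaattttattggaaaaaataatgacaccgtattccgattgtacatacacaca

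None of these sites was 18 to 20 bp from the next. Region averages of sites were thus above the chromosome average at dys-1 and dyb-1, with strong peaks, and at snf-6, with none past the threshold. The dyc-1 average was also above, at 0.870 per kb where chromosome X had 0.537, though its thresholded summit had no site within 200 bp. At stn-1 the average was 0.506 per kb, below the 0.890 of chromosome I. The arrangement differed, with 15 sites within 200 bp of the strongest dys-1 summit and 4 at the highest snf-6 summit. A relation between sites and signal was not tested across the 7 genes.

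Thresholded summits in promoter windows of the complex lay at inner 5' ends. They were found at 2 of the 7 genes, with 2 summits at dyb-1 and 1 at sgca-1, and at 11.2% of all protein-coding genes, a share from which nothing is read because the genes were selected on these peaks. With the outermost 5' end alone the count was 0. At dyb-1 the pooled summit nearest to the outermost 5' end lay 325 bp upstream, with a signal of 15.2 at rank 28357. Of the 16 summits, 10 lay in introns and 5 outside the gene. Of the 10 in introns, 5 were at dys-1 and 4 at dyb-1. The shares of all thresholded summits in introns or outside genes are not given here, so nothing is read from these counts. Per kb of region, thresholded summits were 9.11 times as dense at dyb-1 and 4.17 times at dys-1 as on chromosome I. The ratio was 2.63 at stn-1 to the same chromosome and 0 at snf-6 to chromosome III. To chromosome X it was 5.12 at sgca-1, 3.97 at stn-2 and 1.75 at dyc-1. Each ratio outside dys-1 and dyb-1 rests on at most 1 summit. The summits of stn-1 and stn-2 lay in promoter windows of neighbours, that of dyc-1 beside a tRNA gene, and 1 dys-1 summit in phm-2. Nothing is read from these ratios, because the genes were selected on the same peaks.

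Ranks close to those of the strongest promoter peak of dyb-1 and of the sgca-1 promoter peak were found at genes of other function. Likeness was the sum of absolute log2 rank ratios over the pooled list and both replicates, among 1508 genes with a symbol and a thresholded promoter peak. For the dyb-1 peak in intron 7, ranked 106, 106 and 116, the nearest were sre-50, a chemoreceptor gene, at a sum of 0.57, sor-1 at 0.76 and rpl-23, a ribosomal protein gene, at 0.92. For sgca-1 they were tipn-1 and ubxn-1, which share a peak, and clp-3, a calpain gene, each at 0.07.

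Other genes of dystrophin and muscle biology were counted in 7 wider lists. These lists were chosen with earlier results of these data known, so their counts are descriptions. Of their 49 genes 13 had a thresholded summit, or 26.5%, where the share of all protein-coding genes was 21.8%. In a promoter window 5 had one, or 10.2%, where the share of all protein-coding genes was 11.2%. Most of these genes are long, and 7 of 27 genes of 5000 to under 15000 bp had a summit, or 25.9%, where the share of all genes of that length was 33.9%. The count was 3 of 14 at 2000 to under 5000 bp, where the share of all genes was 23.3%. At 15000 bp or more it was 1 of 5, where the share of all genes was 44.6%. Under 2000 bp it was 2 of 3, and the share of all genes of that length is not given here. Of the 3 dystroglycan genes, which in mammals encode the membrane partner of dystrophin, 0 had a thresholded summit. A further sarcoglycan gene, sgn-1, had a peak of signal 70.6 at rank 3226, 871 bp upstream of its 5' end. Of 5 genes for BK potassium channels and proteins that place or modify them 4 had a summit, beside the 21.8% of all protein-coding genes. The complex localises the channel SLO-1 in worm muscle, and slo-1 had a peak of signal 117 at rank 1599 in an intron. At bkip-1 the signal was 79.2, 42 bp upstream of a 5' end. At islo-1 the signal was 73.0, with the summit in the 5' untranslated region of the neighbour pmk-3. At ctn-1, named because the count was small, the signal was 67.1, in the 3' untranslated region and 10571 bp from the nearest 5' end.

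Of 5 genes that modify the muscle of dystrophin mutants or were studied with it, 0 had a thresholded summit. Of 15 genes of acetylcholine synthesis, release, breakdown and reception 2 had one, an acetylcholinesterase gene, ace-2, with a signal of 177 in an intron, and lev-9, a receptor clustering gene, with 72.1, 602 bp upstream. Of 9 basement membrane genes 2 had one, the laminin gene lam-1 with 266 and the collagen gene let-2 with 104, both in intergenic sequence. Of 11 genes of muscle attachment and dense bodies 4 had one. They were led by deb-1, the vinculin gene, with 145, pat-6, the parvin gene, with 127, and pat-4, the integrin-linked kinase gene, with 121. The gene unc-112, also named because the count was small, had 73.7. The highest summit of each of these 4 genes lay in intergenic sequence. The highest of these signals lay below the highest at dys-1 and at dyb-1. The median of each gene's highest pooled signal was 181 for the 7 genes of the complex and 26.3 for all protein-coding genes, with genes without a pooled peak taken as 0. The 7 genes were selected on these signals, and 181 is the stn-2 peak in the promoter window of unc-18, so these medians are a description only.

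**Figure D5:**
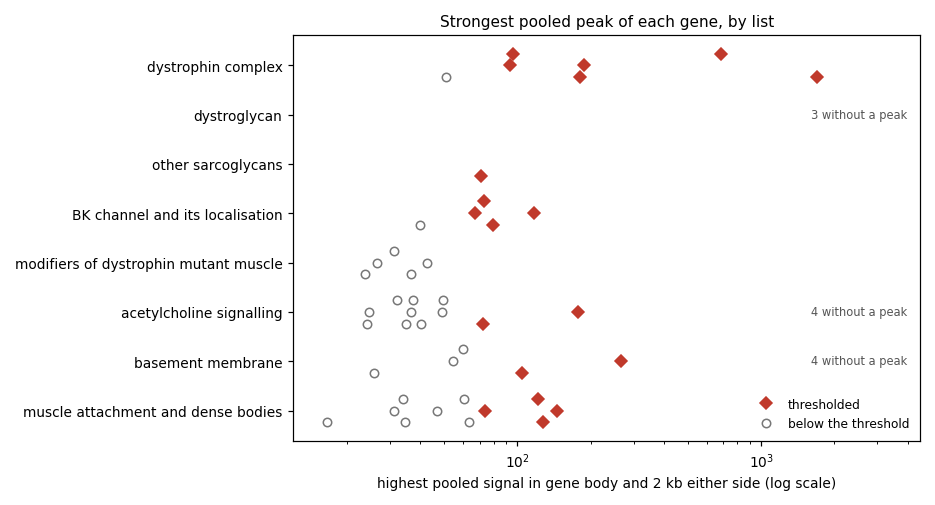
Highest pooled signal of each gene in its body and 2 kb either side, on a log axis, with 1 row per list; filled diamonds are thresholded, open circles are below the threshold, and genes with no pooled peak are given as a number at the right. The dys-1 and dyb-1 diamonds, at 1699 and 687, lie to the right of every gene of the wider lists, of which the highest is lam-1 at 266.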

How the data were processed

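The deposited data are peak lists on ce11 from 2 biological replicates of 1 group, with library fragments of 150 to 350 bp per the labels. Per the deposited file records, the authors made a relaxed list of 30000 peaks from each replicate with a control, another from the pooled replicates, and, with the irreproducible discovery rate, a thresholded list of 3531 peaks out of these 3. The authors deposited, for each peak, its signal and its −log10 q-value. Neither aligner nor peak caller is given in the sources used here. The lists hold no read counts, so depth is unknown. Of the thresholded peaks 78 repeat the interval of another with a different summit and were kept, and 1 summit of replicate 2 past its interval was set to the last base.

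The members and the gene lists were chosen with earlier results of these data known. Genes came from Ensembl release 115 by name, which matched 49 of 50 genes of the wider lists (sgb-1 did not match), and sequence from the WBcel235 genome. Described were every member with each of its thresholded peaks and its best pooled and replicate peaks, up to 3 genes of each wider list with the highest thresholded signal (ctn-1 and unc-112 were added after their values were seen), and the 3 genes closest in rank to a member's promoter peak. Other flanks, windows, overlaps and thresholds were tried, and each replicate alone. Python 3.11.15, numpy 2.4.6, pandas 2.3.3 and scipy 1.17.1 were used, and the counting was checked on simulated data.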

Additional observations from a re-analysis of the deposited data

How the results depend on the processing

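The count of 6 genes with a thresholded summit was 6 with flanks of 5000 bp and with peak overlap of at least 1 bp, and 6 to 6 with each replicate left out. It was 4 with flanks of 500 bp, 4 with peaks above the median signal (dys-1, dyb-1, stn-2 and dyc-1) and 4 without summits in the body or promoter window of another protein-coding gene, a setting chosen after seeing the data, in which stn-1 and stn-2 had none and dys-1 had 6 summits. The promoter count of 2 was 0 with the outermost 5' end alone, 1 with peaks above the median signal, 3 with windows of 2000 bp upstream to 200 bp downstream, which added stn-2, and 2 to 2 with each replicate left out. The count in both replicates was 2 with the 1000 strongest peaks of each, and 6 with an overlap of 50%. The 12 summits with a motif were 11 within 25 bp and 12 within 100 bp. Without replicate 1, dys-1 had 8 summits, dyb-1 4 and stn-1 2. Of 49 counts for single genes 42 stayed within 1.5 times the reported count. These include the snf-6 counts, which were 0 at every setting. The 7 counts that moved further were all at stn-1, stn-2 and sgca-1, with 1 reported summit each. The cause of these differences was not tested. No paired analysis was possible because there is 1 group. Depth is unknown, so a gene without a peak is one where none was listed. The replicate lists were scored separately, so their signals stand side by side, with no SD.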
